A study of Homo sapiens with 8 samples.

Results

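The 26 genes described here encode enzymes that build cholesterol, the proteins that adjust their transcription to the sterol supply, and proteins that move sterols within and out of the cell. They were chosen by name, as sterol pathway enzymes and control genes, with earlier results of these data known. All 26 were among the 57996 gene symbols in the count tables, and all 26 passed the filter on low counts that left 16233 genes for testing. By role, 7 encode enzymes that turn acetyl units into farnesyl diphosphate (the mevalonate arm), 10 encode enzymes that turn farnesyl diphosphate into cholesterol (the squalene and sterol arm), 5 control the SREBP transcription factors and 4 transport sterols. Receptor-mediated entry of lipoproteins is not represented among the 26, so uptake is covered here by the steps that follow it.

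The study compared HAP1 cells lacking BCDIN3D (KO, 1 clone, clone 11) with wild-type HAP1 cells (WT). BCDIN3D is an RNA methyltransferase, and HAP1 is a near-haploid human line derived from a chronic myelogenous leukaemia. Both groups grew for 48 h in medium with 10% serum, a source of lipoprotein cholesterol, and 2 KO and 2 WT libraries of each kind, total RNA and small RNA, were made from the same RNA, of integrity number 10. Replicate 1 of each group carries an earlier date in its title and replicate 2 a later date. The submitters call the replicates biological without saying whether the cultures were separate, so the p-values reflect spread among these libraries that may be technical. With 1 clone, effects of the lost gene and differences between clones cannot be told apart.

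Animal cells make cholesterol from acetyl units through mevalonate, farnesyl diphosphate, squalene and lanosterol. The transcription factors SREBP1 and SREBP2, the products of SREBF1 and SREBF2, are made as membrane proteins of the endoplasmic reticulum, where the escort protein SCAP binds them. When membrane sterol is low, SCAP carries them to the Golgi, where proteases release the active part, which binds sterol regulatory elements in the promoters of the synthesis genes. When sterol is plentiful, the INSIG proteins hold SCAP in the endoplasmic reticulum. Cells can therefore move the whole pathway together, and surplus sterol is esterified or exported, the export through ABCA1, whose gene responds to oxysterols.

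In the RNA-seq libraries BCDIN3D itself, counted as the check of the labels, had 1.56 and 2.71 CPM (counts scaled to a common library total) in KO libraries, against 7.40 and 4.90 CPM in WT libraries (log2 fold change −1.52 ± 0.24, adjusted p = 2.06e-05). Here and below, values are given for replicate 1 and then replicate 2 of a group, ± beside a log2 fold change is its standard error, and adjusted p is edgeR's quasi-likelihood p with Benjamini-Hochberg adjustment over all 16233 genes, called under 0.05. The libraries held 21416336 and 20065041 counts in KO and 20728819 and 24415272 in WT. Member genes had between 192 counts (INSIG2, KO replicate 2) and 7662 counts (FDFT1, WT replicate 2). CPM does not correct for transcript length, so levels are compared between libraries and not between genes. The 8 blood lineage markers had 4 and 4 counts in all in KO libraries and 6 and 23 in WT libraries, and the 6 markers of steroid-making or liver cells had 16 and 4 in KO and 11 and 20 in WT. Of these 6, CYP7A1 and CYP17A1 were at 0 counts in every library. CYP11A1 had 0 and 0 counts in KO and 1 and 0 in WT libraries, and the highest count of any of the 6 in 1 library was 9. In bulk RNA, fewer expressing cells and less RNA per cell cannot be told apart.

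Of the 26 genes, 1 was called higher in KO cells (SCAP), 0 were called lower and 25 were not called. This is 3.85% of the members, where 6.56% of all genes tested were called in either direction 3.06% higher and 3.5% lower. Before adjustment, 3 members had p under 0.05 (SCAP, MVD and INSIG1), and DESeq2 also called SCAP higher and 0 lower. The median log2 fold change of the members was 0.01, beside 0.00 over all genes tested, with 15 members above 0 and 11 below. With library totals in place of the TMM scaling 11 were above 0 and 15 below. The median size of the difference, without its sign, was 0.08 for members and 0.12 for all genes.

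The precision behind these values was enough to bound most differences between these libraries. It rests on a spread among libraries that may be technical, and on 1 KO clone. Standard errors ran from 0.06 to 0.29 on the log2 scale, with a median of 0.08, against a median of 0.11 over all genes. The 95% interval of the fold change lay within 1.25-fold in either direction for 20 of 26 members (76.9%), and for 42.1% of all genes. Within 1.5-fold it lay for 25 of 26 members (96.2%), and for 65.9% of all genes. The exception was ABCA1. These intervals are from the fit without regard to date, where its standard error was 0.29. With the date as a replicate block the ABCA1 standard error was 0.09. The genes tested include some with far fewer counts than any member, and neither sizes nor intervals were compared at matched counts. The libraries of the groups did not overlap for 10 members, 6 with KO above and 4 with KO below, which is 38.5% of the members where 45.3% of all genes did not overlap.

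**Figure D1:**
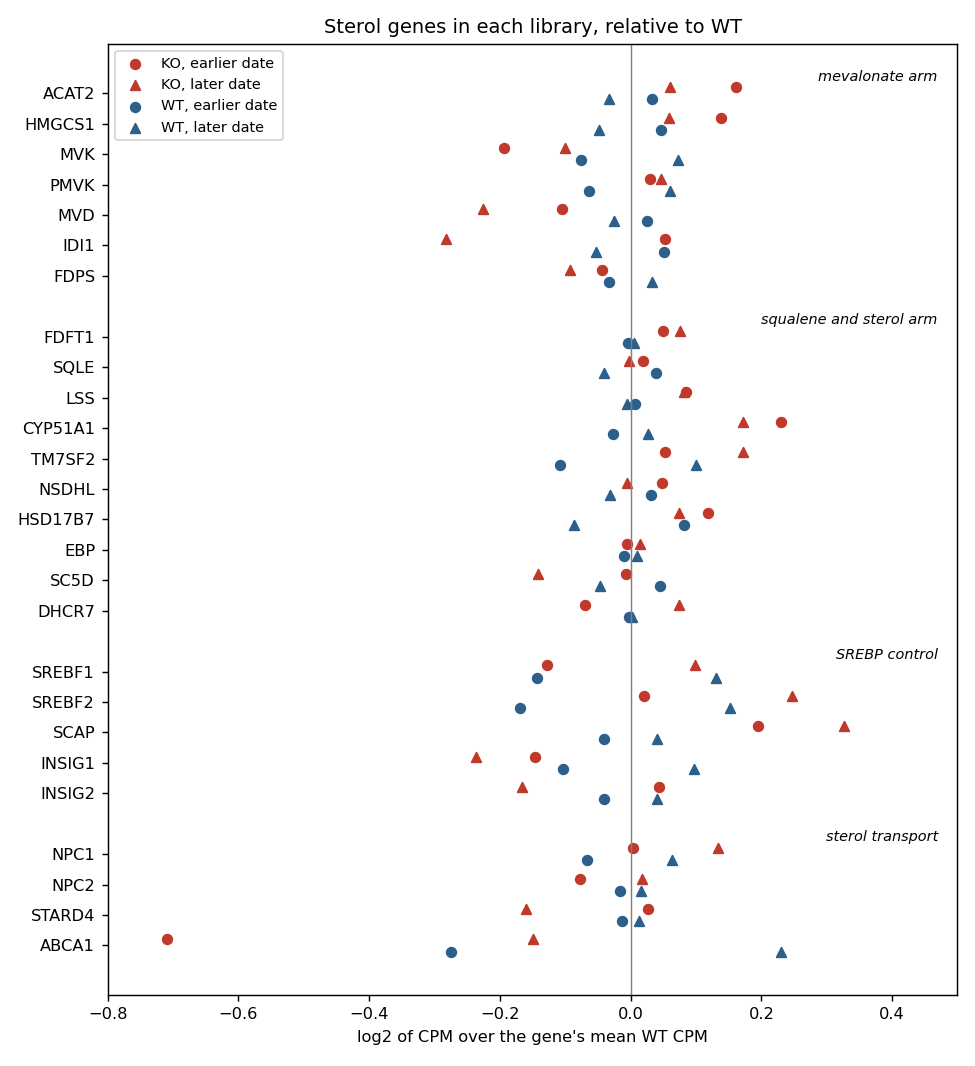
Each point is the CPM of a gene in a library, as log2 of its ratio to the mean CPM of the WT libraries, with KO in red and WT in blue and with circles for the earlier and triangles for the later date. SCAP has both KO points to the right of both WT points, while the ABCA1 points spread widest and are lower at the earlier date in both genotypes.

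**Figure D2:**
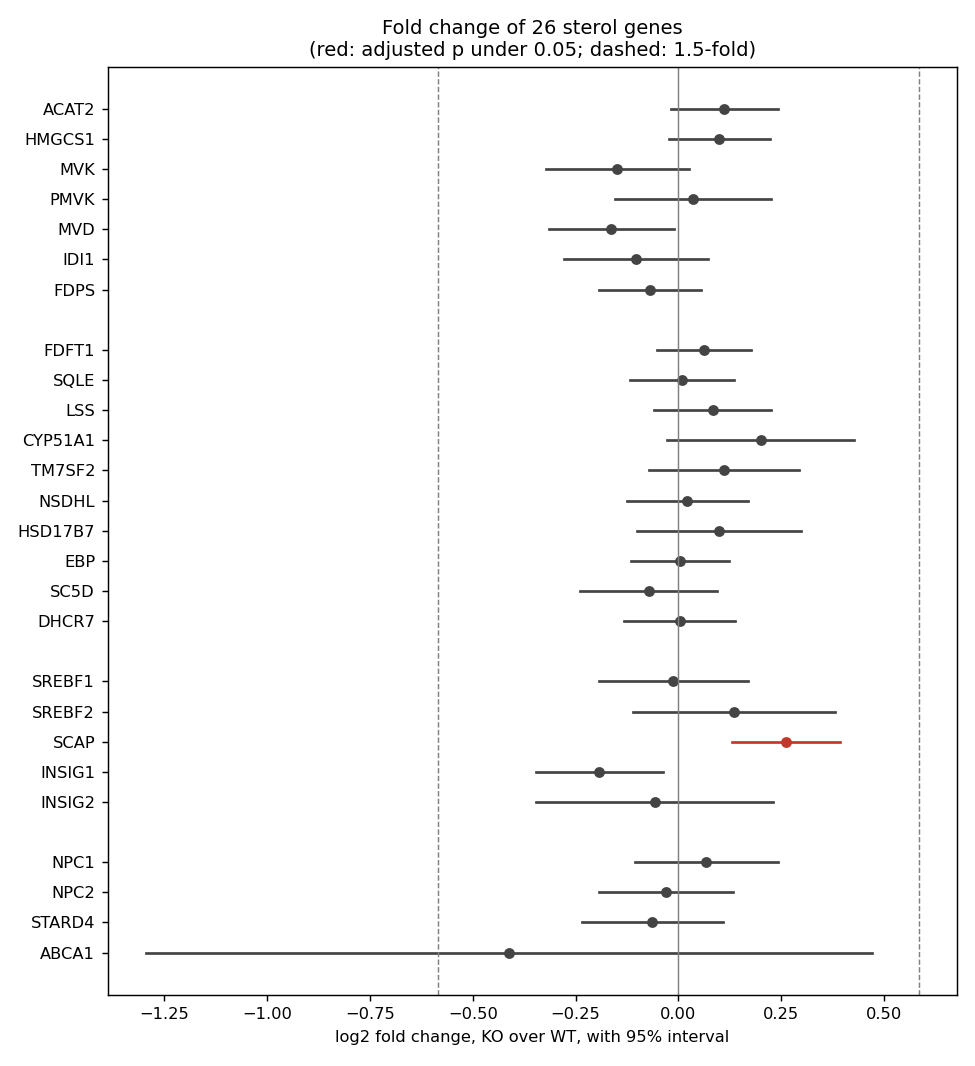
Points show the log2 fold change of KO over WT with its 95% interval, grouped by role from the mevalonate arm at the top to sterol transport at the bottom. In this fit, made without regard to date, SCAP, in red, is the called gene. The ABCA1 interval alone crosses the dashed lines at 1.5-fold.

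In the mevalonate arm 0 of 7 genes were called, with a median log2 fold change of −0.07. ACAT2, the cytosolic thiolase that joins acetyl units, had 152 and 141 CPM in KO cells, against 139 and 132 CPM in WT cells (log2 fold change 0.11 ± 0.06, adjusted p = 0.410). HMGCS1, the synthase that makes HMG-CoA and a usual readout of SREBP2 activity, had 218 and 206 CPM in KO cells, against 204 and 191 CPM in WT cells (0.10 ± 0.06, adjusted p = 0.452). For both of these entry enzymes each KO library lay above each WT library, by less than the test could separate.

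The kinases and the decarboxylase that follow did not pass the test either. MVK, which phosphorylates mevalonate, had 40.0 and 42.7 CPM in KO and 43.4 and 48.1 CPM in WT libraries (−0.15 ± 0.09, adjusted p = 0.416). MVD, which makes isopentenyl diphosphate, had 70.0 and 64.5 CPM in KO and 76.7 and 74.0 CPM in WT libraries (−0.16 ± 0.08, unadjusted p = 0.0359, adjusted p = 0.248). Neither pair of groups overlapped, and KO was below WT in both genes. PMVK, the kinase between them, had 31.3 and 31.7 CPM in KO and 29.4 and 32.0 CPM in WT libraries, where the groups overlapped (0.04 ± 0.09).

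IDI1, the isomerase that makes dimethylallyl diphosphate, had 128 and 101 CPM in KO cells, against 128 and 119 CPM in WT cells (−0.10 ± 0.08, adjusted p = 0.628). The low KO value was that of the later date. Without KO replicate 1, which leaves KO at the later date alone, the log2 fold change was −0.28, and without KO replicate 2 it was 0.054. With the date as a replicate block it was −0.11 ± 0.06 (edgeR adjusted p = 0.265). FDPS, the synthase of farnesyl diphosphate, had 173 and 168 CPM in KO and 175 and 183 CPM in WT libraries (−0.07 ± 0.06, adjusted p = 0.675). Summed over the 7 genes, the arm took 812 and 755 CPM in KO libraries and 795 and 779.5 CPM in WT libraries, so the groups overlapped.

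In the squalene and sterol arm 0 of 10 genes were called, with a median log2 fold change of 0.04 and 9 of the 10 values above 0, or 5 of the 10 with library totals in place of TMM. FDFT1, the squalene synthase that commits the pathway to sterols, had 320.0 and 326 CPM in KO cells, against 308 and 310.3 CPM in WT cells (0.06 ± 0.06, adjusted p = 0.680). SQLE, the epoxidase that is a control point of the arm, had 161 and 158 CPM in KO and 163 and 154 CPM in WT libraries (0.01 ± 0.06). LSS, which closes the sterol rings to give lanosterol, had 90.6 and 90.4 CPM in KO and 85.8 and 85.1 CPM in WT libraries (0.08 ± 0.07, adjusted p = 0.642). FDFT1 and LSS had KO above WT in every library, and the SQLE groups overlapped.

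CYP51A1, the demethylase that acts on lanosterol, showed the largest difference of the 17 enzyme genes in size. Its level was 20.1 and 19.3 CPM in KO cells, against 16.8 and 17.5 CPM in WT cells (0.20 ± 0.11, 95% interval −0.03 to 0.43, adjusted p = 0.395). Both KO libraries were above both WT libraries, and the interval held 0.

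The enzymes after CYP51A1 differed less. TM7SF2, a sterol reductase, had 39.1 and 42.4 CPM in KO and 34.9 and 40.4 CPM in WT libraries (0.11 ± 0.09, adjusted p = 0.623). NSDHL and HSD17B7 take part in removing methyl groups from the sterol ring, and their log2 fold changes were 0.02 ± 0.07 and 0.10 ± 0.10. NSDHL had 80.6 and 77.7 CPM in KO and 79.7 and 76.3 CPM in WT libraries. HSD17B7 had 28.6 and 27.7 CPM in KO and 27.8 and 24.8 CPM in WT libraries. For all of these genes the groups overlapped.

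EBP and DHCR7, near the end of the pathway, had values closest to 0 among the 17 enzyme genes with TMM scaling. EBP, the isomerase that shifts a ring double bond, had 225 and 228 CPM in KO cells, against 224 and 227 CPM in WT cells (0.00 ± 0.06, 95% interval −0.12 to 0.12). DHCR7, the reductase of the last step of a branch, had 115 and 127 CPM in KO cells, against 120.3 and 121 CPM in WT cells (0.00 ± 0.07, 95% interval −0.13 to 0.14). SC5D, the desaturase before it, had 50.2 and 45.8 CPM in KO and 52.1 and 48.9 CPM in WT libraries (−0.07 ± 0.08). Summed over the 10 genes, the arm took 1129 and 1142 CPM in KO libraries and 1113 and 1105 CPM in WT libraries. All 17 enzyme genes together took 0.192% and 0.188% of counts in KO and 0.191% and 0.191% in WT libraries.

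Of the 5 genes of SREBP control, SCAP was higher in KO cells. SCAP (chr3:47413681-47477127, GRCh38.p14) had 151 and 165 CPM in KO cells, against 128 and 135 CPM in WT cells. Its mean was 158 ± 10.2 CPM in KO and 132 ± 5.21 CPM in WT libraries (SD, n = 2 each), a log2 fold change of 0.26 ± 0.07 with adjusted p = 0.00559 by edgeR, or 1.20-fold (95% interval 1.09 to 1.31). Both KO libraries were above both WT libraries, with a difference of 0.24 at the earlier date and 0.29 at the later. DESeq2 gave adjusted p = 0.0367, and DESeq2 with the date as a block gave 0.0509. The call was lost without KO replicate 2 (0.20, adjusted p = 0.128) and without WT replicate 1 (0.22, adjusted p = 0.230). Among the 10 nearest tested genes around SCAP, 5 on each side, 0 were called, and their log2 fold changes ran from −0.32 to 0.17 with a median of 0.03.

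The INSIG genes, whose products hold SCAP back, did not pass the test. INSIG1, itself a target of SREBP, had 71.9 and 67.6 CPM in KO cells, against 74.1 and 85.1 CPM in WT cells (−0.19 ± 0.08, 95% interval −0.35 to −0.04, unadjusted p = 0.0161, adjusted p = 0.155). Both KO libraries were below both WT libraries, and without WT replicate 2 the log2 fold change was −0.085 (adjusted p = 0.835). INSIG2 had 11.2 and 9.65 CPM in KO and 10.5 and 11.1 CPM in WT libraries, with groups that overlapped (−0.06 ± 0.14).

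SREBF2, which encodes the factor that acts mainly on cholesterol genes (chr22:41833105-41907305), had 130.5 and 153 CPM in KO cells, against 114 and 143 CPM in WT cells (0.14 ± 0.11, 95% interval −0.11 to 0.38, adjusted p = 0.641). The groups overlapped, and the later library was higher in each. With the date as a replicate block the SREBF2 value was 0.14 ± 0.05 (edgeR adjusted p = 0.0904). It was 0.25 without KO replicate 1 and 0.31 without WT replicate 2, and the lowest value with 1 library left out was −0.016. Leaving out 1 library makes the dates unequal between the genotypes, so these values mix genotype with date. SREBF1 (chr17:17811334-17836986), whose products act on fatty acid and cholesterol genes, had 114 and 134 CPM in KO cells, against 113 and 137 CPM in WT cells (−0.01 ± 0.09, adjusted p = 0.975).

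Of the 4 transport genes 0 were called. NPC1 and NPC2 pass cholesterol out of the lysosome after lipoproteins are digested there. NPC1 had 42.2 and 46.2 CPM in KO and 40.2 and 44.0 CPM in WT libraries (0.07 ± 0.09). NPC2 had 50.0 and 53.4 CPM in KO and 52.2 and 53.3 CPM in WT libraries (−0.03 ± 0.08). STARD4, a soluble sterol carrier, had 47.2 and 41.5 CPM in KO and 45.9 and 46.8 CPM in WT libraries (−0.06 ± 0.09). The groups overlapped for each.

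ABCA1, the exporter of cholesterol to apolipoproteins (chr9:104781006-104928155), had 17.8 and 26.2 CPM in KO cells, against 24.0 and 34.1 CPM in WT cells. KO was lower at each date, by −0.43 at the earlier and −0.38 at the later on the log2 scale, but the groups overlapped, and each later library was higher than the earlier one of its genotype. Without regard to date the log2 fold change was −0.41 ± 0.29 (95% interval −1.29 to 0.47, edgeR adjusted p = 0.648). With the date as a replicate block it was −0.40 ± 0.09 and ABCA1 was called lower (adjusted p = 0.00175). In that blocked fit 2 of 26 members were called (7.69%), SCAP higher and ABCA1 lower, where 9.55% of all genes were called. DESeq2 did not call ABCA1, with adjusted p = 0.934, or 0.265 with the block. With no filter on low counts edgeR called ABCA1 lower (adjusted p = 0.0105). Without KO replicate 2 its log2 fold change was −0.71, and without WT replicate 1 it was −0.64. Without KO replicate 1 it was −0.16, and without WT replicate 2 it was −0.13. Each of these omissions leaves the dates unequal between the genotypes.

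The date itself separated the libraries for a few of these genes, which was noticed in the values and then tested. In the edgeR fit of genotype and date together, 3 of 26 members (11.5%) were higher at the later date and 0 lower, where 0.444% of all genes were called in either direction. They were ABCA1 (log2 later over earlier 0.53 ± 0.09, adjusted p = 0.00199), SREBF2 (0.27 ± 0.05, adjusted p = 0.00823) and SREBF1 (0.25 ± 0.05, adjusted p = 0.0196). For ABCA1 the difference was 0.56 within KO cells and 0.50 within WT cells. The lowest member by date was IDI1 (−0.22 ± 0.06, edgeR adjusted p = 0.0988), which was not called in this fit. DESeq2 called 0 of the 26 by date, with adjusted p = 0.540 for ABCA1, 0.453 for SREBF2 and 0.755 for SREBF1, and it called 2 genes higher and 9 lower over all genes. Among the 107 tested genes of the related lists described below, 0 were called by date in the edgeR fit. The labels do not say what differed between the dates.

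**Figure D3:**
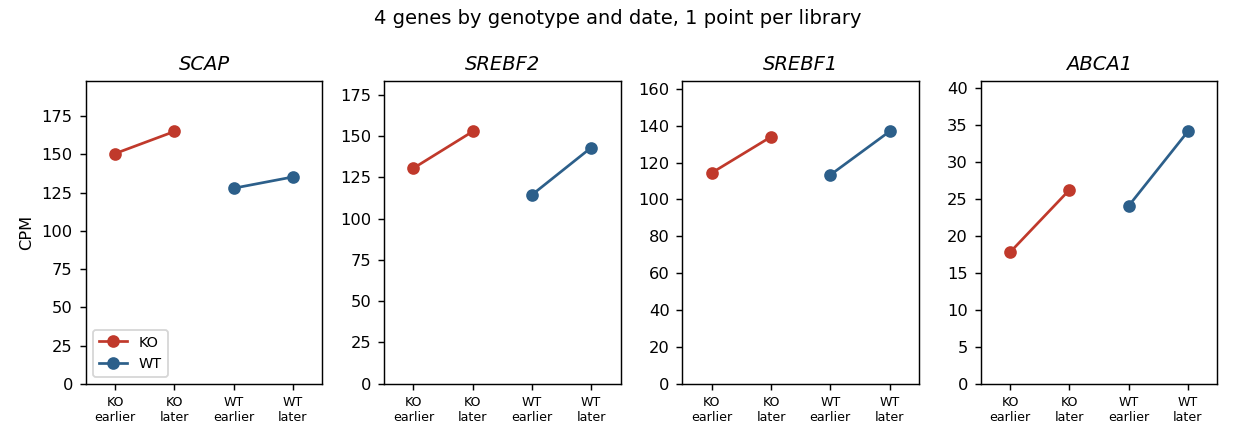
CPM of SCAP, SREBF2, SREBF1 and ABCA1 in each library, from 0, with a line from the earlier to the later date within KO (red) and within WT (blue). SCAP is higher in KO at both dates, SREBF1 follows the date alike in KO and WT, and ABCA1 is lower in KO at both dates and higher at the later date in both genotypes.

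**Figure D4:**
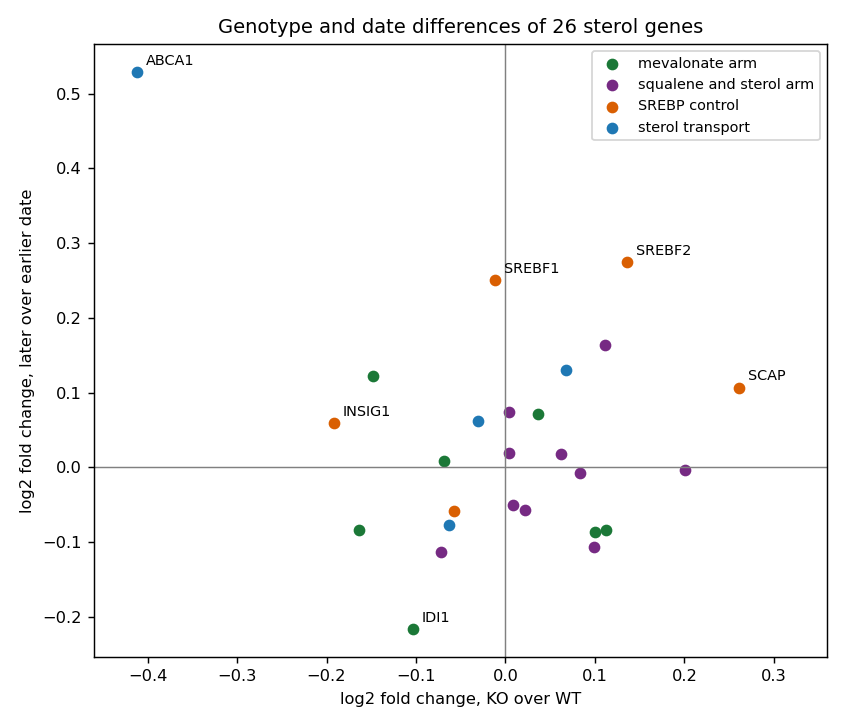
The horizontal axis is the log2 fold change of KO over WT and the vertical axis that of the later over the earlier date, both for the 26 genes and coloured by role. SREBF1, SREBF2 and ABCA1 stand highest on the date axis, and SCAP is farthest right. The synthesis enzymes gather around 0 on both axes except IDI1, which is lowest on the date axis at −0.22.

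The RefSeq sequences just upstream of the genes on which these comparisons turn are printed to show what they hold. Each is the 250 bases before the annotated start in GRCh38.p14, 5′ to 3′ on the strand of the gene. Capitals mark a sterol regulatory element-like TCACNCCAC, the NF-Y box CCAAT, the GC box GGGCGG or the E-box CACGTG, each searched on both strands. The windows are chr3:47475942-47476191 (minus strand) for SCAP, chr22:41832855-41833104 (plus) for SREBF2, chr17:17836987-17837236 (minus) for SREBF1 and chr9:104928156-104928405 (minus) for ABCA1. The SCAP window precedes an annotated start that lies inside the span of the gene.
SCAP upstream window: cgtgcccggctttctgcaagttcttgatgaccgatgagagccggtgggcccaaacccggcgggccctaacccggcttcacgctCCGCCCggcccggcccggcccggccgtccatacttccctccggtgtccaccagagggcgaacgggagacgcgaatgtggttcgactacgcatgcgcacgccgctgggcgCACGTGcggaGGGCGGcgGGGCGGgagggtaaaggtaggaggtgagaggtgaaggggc
SREBF2 upstream window: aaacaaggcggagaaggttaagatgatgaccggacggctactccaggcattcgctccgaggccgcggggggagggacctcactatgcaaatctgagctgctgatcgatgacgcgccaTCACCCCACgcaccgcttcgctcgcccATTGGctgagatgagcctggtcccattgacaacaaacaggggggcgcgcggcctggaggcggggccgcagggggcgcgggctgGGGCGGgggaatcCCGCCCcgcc
SREBF1 upstream window: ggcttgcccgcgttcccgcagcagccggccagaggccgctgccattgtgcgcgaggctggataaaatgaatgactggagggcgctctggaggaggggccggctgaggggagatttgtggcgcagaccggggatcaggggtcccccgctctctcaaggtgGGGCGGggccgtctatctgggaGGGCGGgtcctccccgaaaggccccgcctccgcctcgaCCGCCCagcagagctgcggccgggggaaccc
ABCA1 upstream window: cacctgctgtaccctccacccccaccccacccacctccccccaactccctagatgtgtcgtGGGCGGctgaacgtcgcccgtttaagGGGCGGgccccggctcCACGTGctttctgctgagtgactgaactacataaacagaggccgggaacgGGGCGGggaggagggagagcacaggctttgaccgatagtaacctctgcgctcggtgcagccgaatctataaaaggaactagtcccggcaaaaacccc

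SREBF2 was the only one of the 23 members with a window to hold the TCACNCCAC letters. Some genes have several windows, and the letters were in 1 of the 30 member windows (3.33%), beside 0.883% of all 35116 windows. CCAAT was in 18 of the 30 member windows (60.0%), of 16 genes, and in 32.0% of all windows. It was present upstream of SREBF2 and INSIG1 and absent from the printed windows of SCAP, SREBF1 and ABCA1. GGGCGG was in 28 of the 30 (93.3%), of 22 genes, and in 42.6% of all windows. CACGTG was in 5 of the 30 (16.7%), of 4 genes (SCAP, INSIG1, SC5D and ABCA1), and in 6.34% of all windows. A match describes the letters and not a bound site, and its absence concerns this window only. All windows belong to 27305 genes, more than the 16233 tested here, and shares over tested genes alone were not compared.

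Introns of the SREBP genes carry microRNAs that act on ABCA1: miR-33a lies within SREBF2 (chr22:41900949-41900969, plus) and miR-33b within SREBF1 (chr17:17813897-17813916, minus). Their mature RefSeq sequences are shown with those of the other microRNAs, reported to act on ABCA1, that are discussed next. Bases 2 to 8, the seed, are in capitals.
miR-33a-5p: gUGCAUUGuaguugcauugca
miR-33b-5p: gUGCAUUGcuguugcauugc
miR-27a-3p: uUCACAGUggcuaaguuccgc
miR-27b-3p: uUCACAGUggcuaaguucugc
miR-148a-3p: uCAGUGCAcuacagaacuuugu
The miR-33 pair shares a seed and differs at 2 of 20 aligned bases, and the miR-27 pair shares another and differs at 1 of 21.

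In the small RNA libraries, which held 157706 and 346626 microRNA counts in KO and 236073 and 266466 in WT, the miR-33 family was at or near the limit of detection. miR-33a-5p had 0 counts in all 4 libraries, which allows up to 19.0 and 8.65 CPM in the KO libraries and 12.7 and 11.3 CPM in the WT libraries (3 counts each, counting error only). miR-33b-5p had 6 and 0 counts in KO and 0 and 0 in WT libraries. The passenger strand miR-33a-3p had 1 and 0 counts in KO and 3 and 7 in WT libraries.

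Of the 15 microRNAs listed for miR-33 or ABCA1, 6 passed the filter and 0 were called by edgeR or DESeq2, with 0 at an unadjusted p under 0.05 in edgeR, where 0.366% of all 546 microRNAs tested were called. miR-148a-3p had 13 and 34 counts in KO libraries, against 73 and 57 in WT libraries (log2 fold change −1.76 ± 0.79, 95% interval −3.62 to 0.10, unadjusted p = 0.0599). miR-27b-3p had 101 and 182 counts in KO and 107 and 80 in WT libraries (0.37 ± 0.51, 95% interval −0.83 to 1.57). miR-27a-3p had 20 and 52 counts in KO and 28 and 9 in WT libraries (0.64 ± 1.05). miR-10b-5p had 150 and 449 counts in KO and 116 and 208 in WT libraries (0.57 ± 0.46). Each had adjusted p = 0.999 by edgeR, and the intervals left changes of several fold undetectable at this depth. miR-20a-5p (34 and 0 counts in KO, 14 and 20 in WT), miR-26a-5p (0 and 15 in KO, 21 and 0 in WT), miR-106b-5p (10 and 0 in KO, 0 and 0 in WT) and miR-302a-3p (0 and 0 in KO, 0 and 10 in WT) each had at least 1 library at 0.

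Related lists around the pathway were counted in the same fit. They were drawn up with earlier results of these data known, so their called shares are descriptions and not tests. Together they held 118 symbols, of which 116 were in the count tables, and 107 genes were tested. Of these, 2 were higher in KO cells and 5 lower, with a median log2 fold change of 0.01. These 7 called genes are 6.54% of the 107, beside the 6.56% over all genes. In the late sterol steps outside the 26, 0 of 3 were called. LBR, which shares its sterol reductase step with TM7SF2, had 318 and 293 CPM in KO and 342 and 347 CPM in WT libraries (−0.17 ± 0.06, adjusted p = 0.0639), and with the date as a replicate block it was called lower (adjusted p = 0.0120), as it was with library totals (0.0227), the stricter filter (0.0362) and without KO replicate 1 (0.00555). DESeq2 did not call LBR, with adjusted p = 0.153, or 0.180 with the block. MSMO1, a sterol oxidase, had 108 and 92.8 CPM in KO and 105 and 103 CPM in WT libraries (−0.05 ± 0.07). Among 25 genes that escort, cleave or turn over SREBP and its partners, 0 were called (median −0.01). The lowest p-values there were those of the coat subunit SEC24A (−0.18 ± 0.08, adjusted p = 0.223) and the protease MBTPS2 (−0.21 ± 0.10, adjusted p = 0.294).

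SLC25A1, the mitochondrial citrate carrier that feeds acetyl units to lipid synthesis, was the 1 called of 8 genes of acyl supply (12.5%). It had 170.5 and 184 CPM in KO cells, against 144 and 147 CPM in WT cells (0.28 ± 0.06, adjusted p = 0.00156), and the call was lost without WT replicate 1 (adjusted p = 0.0695). SOAT1, which esterifies cholesterol for storage, was lower, with 174 and 161 CPM in KO cells, against 224 and 231 CPM in WT cells (−0.44 ± 0.06, adjusted p = 3.77e-07). SCARB2, a lysosomal membrane protein, was higher, with 82.4 and 81.2 CPM in KO cells, against 66.8 and 70.4 CPM in WT cells (0.25 ± 0.07, adjusted p = 0.0236, DESeq2 0.0991). The SCARB2 call was also lost with library totals (0.0545) and without KO replicate 1 (0.0552), WT replicate 1 (0.366) or WT replicate 2 (0.0956). SOAT1 and SCARB2 were the 2 called among 34 genes of transport, storage and efflux (5.88%, median 0.06). With the date as a replicate block edgeR also called MYLIP, a ligase that targets lipoprotein receptors (0.32 ± 0.09, adjusted p = 0.0236), and the fatty acid ligase ACSL3 (0.19 ± 0.05, adjusted p = 0.0233) higher. DESeq2 with the same block called neither, with adjusted p = 0.812 for MYLIP and 0.538 for ACSL3.

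Of 21 genes listed as fatty acid targets of SREBP, 0 were called higher and 3 lower (median 0.04), which is 14.3% of the list, beside 6.56% of all genes called in either direction. The list also holds TMEM97 and ALDOC, which are not fatty acid enzymes. Whether the listed genes are SREBP targets in these cells was not tested. The desaturase SCD had 588 and 599 CPM in KO cells, against 645 and 714 CPM in WT cells (−0.20 ± 0.06, adjusted p = 0.0222, DESeq2 0.0665 or 0.0260 with the date as a block), and the call was lost without WT replicate 2 (−0.12, adjusted p = 0.634). SCD5, a related desaturase, had 13.7 and 11.5 CPM in KO cells, against 18.4 and 18.3 CPM in WT cells (−0.54 ± 0.12, adjusted p = 0.00236), and the call was lost without KO replicate 2 (adjusted p = 0.0887). DESeq2 gave SCD5 adjusted p = 0.0292, or 0.212 with the date as a block. FABP5, a fatty acid carrier, had 12.7 and 11.9 CPM in KO cells, against 25.5 and 23.1 CPM in WT cells (−0.98 ± 0.12, adjusted p = 7.45e-09), and this value is given as uncertain, since FABP5 pseudogenes are also listed in the files and how shared reads were counted was not tested. Of 16 genes of the isoprenoid branches that leave the mevalonate arm, 1 was called (6.25%), RABGGTB, a subunit of the enzyme that attaches geranylgeranyl groups to Rab proteins. It had 162 and 159 CPM in KO cells, against 204 and 188 CPM in WT cells (−0.29 ± 0.06, adjusted p = 0.00122), and the call was lost without WT replicate 1 (adjusted p = 0.169).

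**Figure D5:**
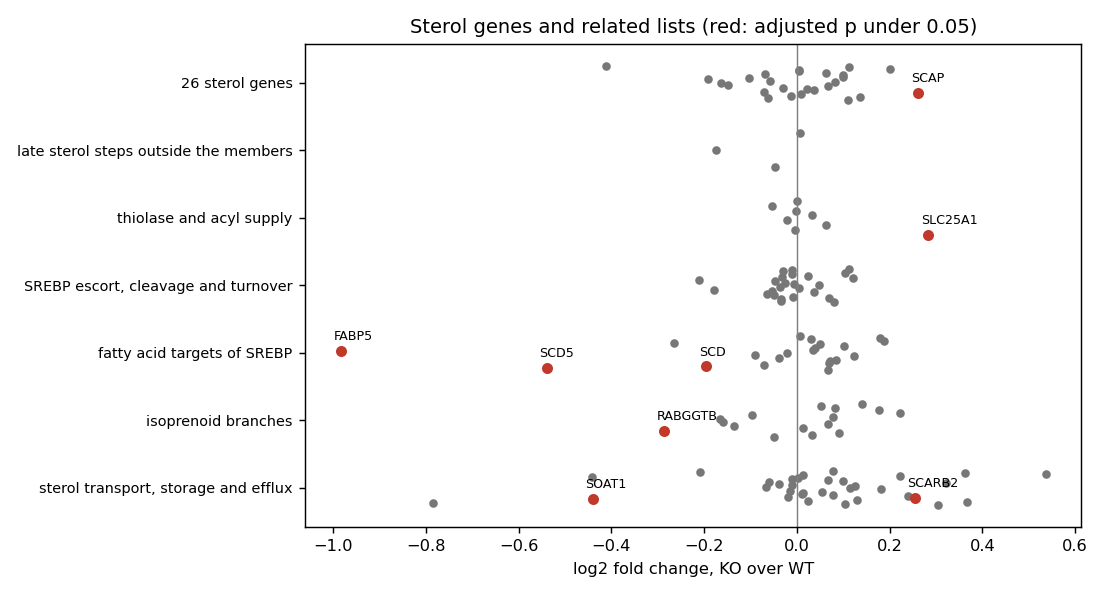
Each point is the log2 fold change of KO over WT for 1 tested gene, in rows for the 26 sterol genes and the 6 related lists, with called genes in red and named. Within the 26 the called gene is SCAP. In the lists the lower calls lie in the rows of fatty acid targets, isoprenoid branches and sterol transport, storage and efflux. The higher calls are SLC25A1, in the acyl supply row, and SCARB2, in the same row as SOAT1.

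Among all tested genes of chromosome 1, the values differed with position. Of 561 tested genes beyond position 130000000 of chromosome 1, 6 were called higher and 53 lower, with a median log2 fold change of −0.09, while of 776 tested genes before it 24 were higher and 23 lower, with a median of 0.01. PMVK (0.04), FDPS (−0.07) and HSD17B7 (0.10), none of them called, lie in the distal stretch, and so do SOAT1 and LBR. Its part in their values was not tested. Of the 26 genes, 10 share their span with 16 other listed genes, among them ACAT2 with TCP1 and SOD2, MVK with MMAB and SREBF1 with RAI1. The strand setting of the counting is not given in the sources used here, so reads of such neighbours cannot be told apart where they overlap.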

How the data were processed

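The authors deposited raw read counts, 1 file per library, by gene symbol or mature microRNA name. Build hg38 and the tools STAR, featureCounts, Subread, FastQC, SAMtools and cutadapt appear in the submitters' processing notes. Tool versions, gene annotation and strandedness of counting were not given in the sources used here. Counts were tested in R 4.3.3 with edgeR 4.0.16 (filterByExpr with a minimum count of 10, TMM, robust quasi-likelihood F test), KO against WT, on the whole table of each assay. The scripts were checked on simulated data. Standard errors are the size of the log2 fold change over the root of F. CPM uses TMM-scaled library sizes. DESeq2 1.42.0, other scalings and filters and leaving out each library were alternatives.

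KO and WT share the dates in their titles, which pairs the replicates. Later-minus-earlier differences correlated between genotypes across 16233 genes with r = 0.118, and across the 26 members with r = 0.767. The first value includes genes with far fewer counts than any member, and the second includes ABCA1, SREBF1 and SREBF2, which edgeR called by date. These correlations were not compared at matched counts. Replicates differed by more than sampling noise (chi-square per degree of freedom 4.80 in KO and 3.95 in WT), and the biological coefficient of variation was 5.53%.

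The members and lists were chosen with earlier results of these data known. Named were all 26 members, BCDIN3D, every called gene of each related list or the 2 of smallest p, and listed microRNAs with at least 10 counts. ACSL3 and MYLIP, and the test by date, were chosen after their values were seen. Gene positions and sequences are from RefSeq (GRCh38.p14), and 23 of 26 members had an upstream window.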

Additional observations from a re-analysis of the deposited data

How the results depend on the processing

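Of 312 single-gene values of the 26 members under 12 alternatives, 273 kept their direction and their side of the threshold, 29 changed sign, 7 newly passed and 3 no longer passed. Those that changed sign belonged to 11 genes and 0 of them passed the threshold. With library totals in place of TMM, SQLE was −0.018, NSDHL −0.0046, EBP −0.023 and DHCR7 −0.023. With RLE factors and with DESeq2, EBP was −0.0012 and DHCR7 −0.0019, and DESeq2 with the replicate block gave −0.0011 and −0.0030. The stricter filter gave SQLE −0.0033, EBP −0.0079 and DHCR7 −0.0085. Leaving out 1 library gave ranges of −0.025 to 0.10 for PMVK, −0.28 to 0.054 for IDI1, −0.029 to 0.046 for SQLE, −0.0071 to 0.050 for NSDHL, −0.0079 to 0.016 for EBP, −0.069 to 0.075 for DHCR7, −0.14 to 0.13 for SREBF1, −0.016 to 0.31 for SREBF2, −0.17 to 0.043 for INSIG2, −0.077 to 0.017 for NPC2, −0.16 to 0.027 for STARD4, −0.16 to 0.061 for MSMO1, −6.45 to 5.55 for miR-26a-5p, −0.10 to 1.84 for miR-27a-3p and −7.31 to 1.36 for miR-20a-5p, which was −1.77 with the replicate block. Members called higher numbered 0 with DESeq2 and the block and 0 to 2 without 1 library. Members called lower numbered 1 with no filter, 1 with the block and 0 to 1 without 1 library. In edgeR, beyond ABCA1, LBR, ACSL3 and MYLIP, the date as a replicate block changed no other call among the genes and microRNAs named. In DESeq2 it ended the calls of SCAP (0.0509) and SCD5 (0.212) and added SCD (0.0260). Related genes called higher numbered 1 with library totals, 4 with the block, 1 with DESeq2, 1 with DESeq2 and the block, and 0 to 4 without 1 library. By date, DESeq2 called 0 members higher, and RLE factors, no filter and the stricter filter each called 1 lower (IDI1). Over all genes 497 were higher and 568 lower, against 767 higher with the block, 255 and 331 with DESeq2, 176 and 211 with DESeq2 and the block, and 240 to 684 higher and 340 to 705 lower without 1 library. Leaving out 1 library also makes the dates unequal between the genotypes, so in those fits genotype and date cannot be fully told apart. The cause of these changes was not tested.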
